A study of Mus musculus with 3 samples.

Results

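Genomic binding of TBX5, a T-box factor required for heart and forelimb formation, was mapped by chromatin immunoprecipitation and sequencing (ChIP-seq) in whole hearts dissected at E14.5 from outbred CD-1 mice. There were 2 replicates of TBX5 ChIP, with an antibody against the protein, and 1 sample of input chromatin. No treatment or genetic change is named for any of them in the labels. Peaks were called on the pooled TBX5 samples, so each value below belongs to 1 pooled measurement and the spread between the hearts or replicates is unknown. The peaks near 10 genes of the Notch pathway are described here. A peak was taken if its summit, the position of highest signal, lay in the RefSeq body of Notch1, Notch2, Notch3, Jag1, Jag2, Dll4, Rbpj, Hey1, Hey2 or Heyl or within 50 kb of it on mm10. This gave 19 of the 12436 peaks of the list, and no peak fell to 2 of the genes.

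Notch signalling passes between touching cells. A ligand of the Jagged or Delta-like families on one cell binds a Notch receptor on the next, the receptor is cleaved, and its inner part enters the nucleus. There it joins RBPJ, the DNA-binding factor of the pathway, and switches on targets such as the HEY family of transcriptional repressors. In the embryonic heart the pathway is known for roles in trabeculation, valve formation and the outflow tract, with receptors and ligands largely in the endocardium and endothelium, and Hey2 marks compact ventricular myocardium. Whole hearts hold all of these cells, and the cell type in which TBX5 sat at a given peak cannot be told from these data.

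The sequence before a start is shown for the 3 genes at which a called peak covered part of the 250 bases upstream of a RefSeq start. At Rbpj a promoter peak lay close to a start but covered only bases past it, so that sequence is not shown. They are printed 5′ to 3′ in the direction of transcription, with the bases inside the called peak in capitals. RefSeq promoters (GRCm38.p6, the assembly of mm10) were at hand for 8 of the 10 genes. The Notch2 stretch is chr3:98013288-98013537 on the plus strand, the Jag2 stretch chr12:112929496-112929745 on the minus strand and the Hey2 stretch chr10:30842784-30843033 on the minus strand.
Notch2: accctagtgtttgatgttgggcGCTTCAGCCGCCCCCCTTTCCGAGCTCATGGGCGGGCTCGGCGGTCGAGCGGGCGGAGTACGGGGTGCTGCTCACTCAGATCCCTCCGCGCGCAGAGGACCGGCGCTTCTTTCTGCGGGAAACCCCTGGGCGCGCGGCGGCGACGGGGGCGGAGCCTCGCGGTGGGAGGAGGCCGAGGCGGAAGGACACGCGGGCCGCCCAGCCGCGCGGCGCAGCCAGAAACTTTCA
Jag2: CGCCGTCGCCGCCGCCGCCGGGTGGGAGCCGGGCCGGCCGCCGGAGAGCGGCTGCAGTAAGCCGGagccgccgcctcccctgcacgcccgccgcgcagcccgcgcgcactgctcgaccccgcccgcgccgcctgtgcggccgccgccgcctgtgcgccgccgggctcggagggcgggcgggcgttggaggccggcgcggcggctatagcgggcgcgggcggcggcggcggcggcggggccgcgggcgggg
Hey2: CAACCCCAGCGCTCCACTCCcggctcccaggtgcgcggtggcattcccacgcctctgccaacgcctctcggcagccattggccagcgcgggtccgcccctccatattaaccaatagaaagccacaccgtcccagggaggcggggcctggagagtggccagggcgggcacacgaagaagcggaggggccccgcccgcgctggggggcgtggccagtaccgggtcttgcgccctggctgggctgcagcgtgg
The Notch2 peak covered 228 of these bases and had its summit among them, whereas the Jag2 and Hey2 peaks covered 65 and 20 bases at the far end and had their summits further upstream. The 3 stretches were rich in G and C, at 72.0% for Notch2, 87.2% for Jag2 and 71.6% for Hey2, beside a median of 63.6% over all coding-gene promoters that a TBX5 peak overlapped and 55.6% over all coding-gene promoters.

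Letters of known binding motifs were searched on both strands in the 300-base promoters, which run from 250 bases before to 50 bases after the start. A gene of the set counted if any of its promoters held the letters, whereas the shares given for comparison count promoters. The T-box letters GGTGTGA stood in the promoters of 0 of the 8 genes, beside 3.67% of all 21045 coding-gene promoters and 4.40% of the 1683 that a TBX5 peak overlapped. The shorter GGTGTG, which lies within GGTGTGA, stood once, in the Hey2 promoter, beside 18.3% of all promoters. The longer AGGTGTGA was in 0 of the 8 and in 1.16% of all. Hey2 was also the gene with RBPJ letters, GTGGGAA, at 2 places, with first bases 207 and 4 bases before the start. The first of these shares bases with a match to the TEAD letters GGAATG, and the other runs across the start, beyond the printed stretch. The called Hey2 peak covered only 20 bases at the far end of the printed stretch, and none of the Hey2 matches lay inside it. RBPJ letters stood in 6.07% of all promoters, and TEAD letters in 13.5%, with 3 of the 8 genes (Notch1, Rbpj and Hey2) holding them. GATA letters, AGATAA (9.68% of all promoters), and the E-box CACGTG (7.91%) stood in 0 of the 8. These counts concern letters in short windows and say nothing of which protein binds there, and the distal peaks were not searched because no genome sequence was used.

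All 10 genes had at least 1 summit in the 50 kb window. Over the 21631 protein-coding genes of chromosomes 1 to 19 and X the same held for 49.8%. The 10 genes were chosen with earlier results of these data known, so the shares set side by side here do not test enrichment. With a window of 10 kb there were 7 of 10, beside 29.9% of coding genes, and within the body alone 5 of 10, beside 19.2%. Rbpj had 4 summits, Notch2 had 3, Notch1, Jag2, Hey1 and Hey2 had 2 each, and Notch3, Jag1, Dll4 and Heyl had 1 each. At least 2 summits, as at 6 of the 10 genes, were found at 26.6% of coding genes, and at least 4, as at Rbpj, at 7.60%. The 10 windows held 1.33 summits per 100 kb, beside 0.729 over the windows of all coding genes. The bodies of the 10 genes had a median length of 28540 bp, beside 17329 bp for all coding genes, and the part of gene length in these counts was not tested.

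The windows are crowded, and a summit in them need not belong to the Notch gene. For 12 of the 19 summits the Notch gene was the nearest protein-coding gene, and for 7 it was another. Relative to the direction of transcription, 9 summits lay upstream of the gene body, 8 inside it and 2 downstream. By the authors' class, 7 peaks were promoter peaks, meaning that the summit lay within 2000 bp of a start. At 6 of these the start was that of the Notch gene itself, in Notch2, Jag2, Hey1 and Hey2 with 1 each and in Rbpj with 2. The 7th was at the start of Vps18, in the Dll4 window.

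**Figure D1:**
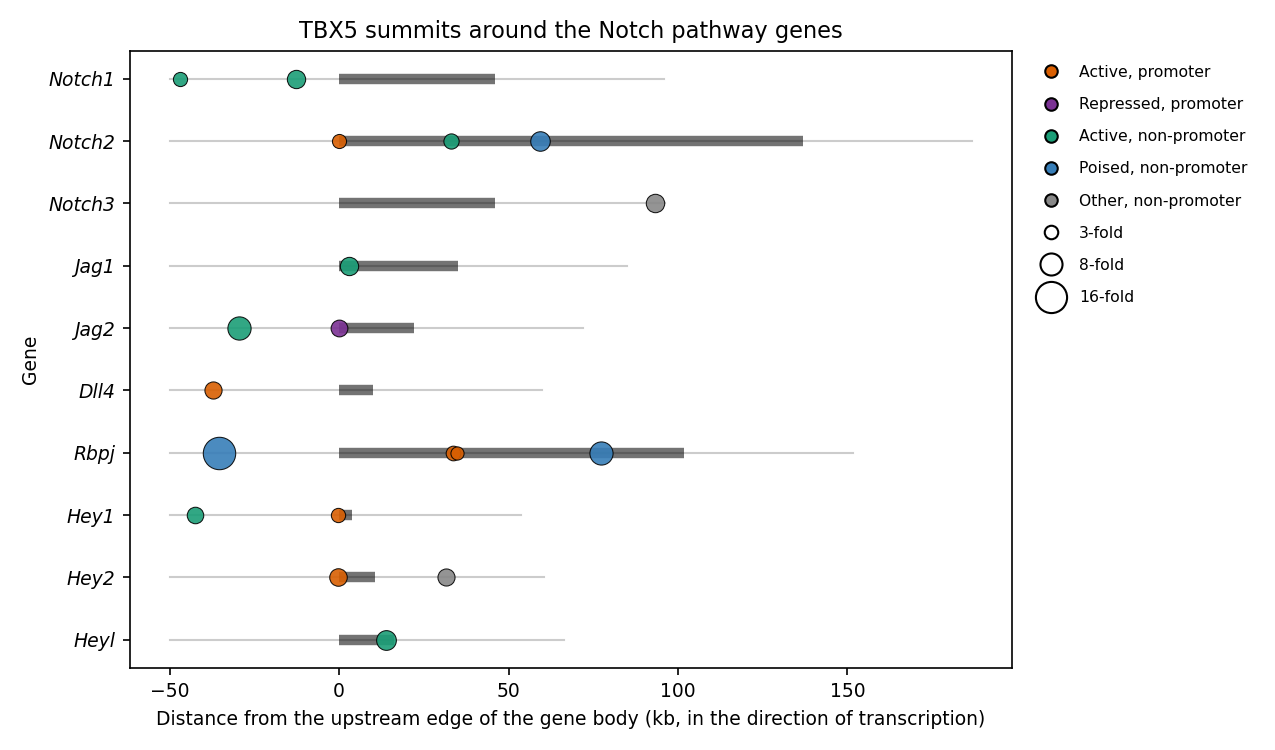
Position of the 19 TBX5 summits around the 10 genes, as distance in kb from the upstream edge of the gene body in the direction of transcription (x axis) for each gene (y axis). Thick bars are gene bodies, thin lines the 50 kb on each side, circle area is fold enrichment and colour the class in the deposited table. Upstream summits number 9, body summits 8 and downstream summits 2, and the largest circle is the 17.3-fold peak upstream of Rbpj.

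The receptor genes carried 6 peaks, none above 6.27-fold. Fold enrichment, as the authors give it, sets the pooled ChIP fragments at the summit against local background, and the interval given with it is the exact 95% Poisson interval of the fragment count with the background held fixed. It covers counting error alone. Notch1, a receptor needed for trabeculation and valve formation, had 2 peaks upstream of its start and none in its body. The nearer, at chr2:26516403-26516631, lay 12691 bp from the body with 5.52-fold enrichment (3.65 to 8.05) from 25 fragments. It overlapped regions of H3K27ac, H3K9ac, H3K4me3 and H3K4me1, marks of active promoters and enhancers, as well as a region bound by TBX3, a related T-box repressor. For this peak Notch1 was the nearest coding gene, while the authors' signed distance matched the start of Gm35978. The farther, at chr2:26550729-26550920, was 3.31-fold (1.91 to 5.40) from 14 fragments, and Egfl7, a gene of endothelial cells, was nearer to it (30258 bp) than Notch1 (47003 bp).

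Notch2, a receptor with known roles in smooth muscle of the outflow vessels, was the receptor gene with peaks at its start and in its body. The promoter peak at chr3:98013310-98013540, whose sequence is printed above, lay 105 bp upstream of the start and was 3.27-fold (2.24 to 4.62). It rested on 30 fragments over a background of 8.48, the highest background among the 19 peaks. Inside the body, a peak at chr3:98046408-98046627 was 3.82-fold (2.37 to 5.86) and carried H3K27ac and H3K4me1. A further peak at chr3:98072682-98072871, 59245 bp past the start, was 6.27-fold (4.07 to 9.28) and carried H3K4me1 without H3K27ac, the authors' poised class. The promoter peak and the weaker body peak overlapped TBX3 regions, and the poised peak did not. The intervals of the 3 Notch2 peaks overlap.

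Notch3, the receptor of vascular smooth muscle and pericytes, had no peak in or near its body. Its 1 summit, at chr17:32073555-32073738, lay 47208 bp downstream, close to the edge of the window, and was 5.58-fold (3.38 to 8.75). Rrp1b was the nearest coding gene, at 10747 bp. The peak overlapped a TBX3 region and none of the 6 histone marks in the table.

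The ligand genes carried 4 peaks. Jag1, the ligand mutated in Alagille syndrome with its right-sided heart defects, had 1 peak inside its body, at chr2:137113521-137113821. Its summit lay 2835 bp past the start, just outside the promoter class. It was 5.51-fold (3.70 to 7.93) from 27 fragments and overlapped H3K27ac, H3K9ac, H3K4me3 and H3K4me1. No other summit of the list lay within 221591 bp, the longest such distance among the 19 peaks.

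Jag2, a second Jagged ligand, had 2 peaks with different marks. The peak at its start, chr12:112929681-112930194, had its summit 274 bp upstream of the start used by the authors, which lies inside the RefSeq body, and 43 bp inside the upstream edge of that body. It was 4.63-fold (2.92 to 7.04) from 20 fragments. This was the only peak of the 19 to overlap H3K27me3, the mark of Polycomb repression, which 1.63% of all peaks did, and the authors classed it as a repressed promoter. The same peak overlapped H3K4me3, H3K9ac, H3K4me1 and, in 1 of the 2 region files of that mark, H3K27ac. The other peak, at chr12:112958989-112959487, was 8.89-fold (6.01 to 12.7) from 28 fragments, an active non-promoter peak. It lay 29569 bp upstream of Jag2 but inside the body of Brf1, a subunit gene of an RNA polymerase III initiation factor. Neither Jag2 peak overlapped a TBX3 region.

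Dll4, the Delta-like ligand of endocardium and arterial endothelium, had no peak of its own by position. The single summit in its window, at chr2:119288589-119288817, lay 37124 bp upstream of its body and 82 bp upstream of the start of Vps18, a gene of vesicle trafficking. That peak was 4.85-fold (3.09 to 7.30), overlapped TBX3 and was classed as an active promoter.

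Rbpj held the strongest peak and the largest number. An upstream peak at chr5:53520023-53520564, 35558 bp before the gene body, reached 17.3-fold (13.0 to 22.5) from 53 fragments over a background of 2.12. It ranked 713th by fold in the list, above 94.2% of all peaks, and Rbpj was its nearest coding gene. A body peak at chr5:53632802-53633017, 77161 bp past the upstream edge, was 8.82-fold (5.67 to 13.2) from 22 fragments. Both overlapped H3K4me1 in both region files, neither overlapped H3K27ac, and neither overlapped TBX3.

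The 2 promoter peaks of Rbpj lay inside the RefSeq body, and the authors' distances place them 1062 bp upstream of one internal start and 42 bp past another. They were weaker, at 3.53-fold (2.33 to 5.15) for chr5:53589224-53589408 and 2.86-fold (1.71 to 4.54) for chr5:53590522-53590716. Their summits were 1244 bp apart, the only summits of the 19 with another summit of the list within 10 kb. Each carried H3K4me3, H3K9ac and H3K27ac without H3K4me1, and the upstream one of the pair overlapped a TBX3 region. The interval of the 17.3-fold peak overlaps that of the body peak only narrowly, from 13.0 to 13.2, and lies above those of both promoter peaks.

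The HEY targets carried 5 peaks between 3.35-fold and 6.41-fold. Hey1, an atrial and endocardial member of the family, had a promoter peak 333 bp upstream of its start, at chr3:8667291-8667498, of 3.35-fold (2.23 to 4.85) from 26 fragments over a background of 7.06. Its other peak, 42465 bp upstream at chr3:8709442-8709629, was 4.49-fold (2.54 to 7.45) from 13 fragments, the lowest count of the 19. For both, the nearest coding gene in RefSeq was LOC115489673, a locus whose body covers the summit of the promoter peak, while the authors' signed distances refer to the start of Hey1.

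Hey2, the ventricular member, had a promoter peak at chr10:30843014-30843212, 345 bp upstream, of 5.07-fold (3.38 to 7.34) from 26 fragments. This was the highest fold among the 7 promoter peaks of the set, although the 7 intervals overlap, and it overlapped TBX3. A peak downstream of Hey2, at chr10:30810998-30811177, was 4.81-fold (2.77 to 7.85), and Ncoa7 was the nearer gene, at 3439 bp. It overlapped H3K4me3 and H3K9ac but neither H3K27ac nor H3K4me1, and the authors placed it in their class of other non-promoter peaks. Heyl, a member known from vascular smooth muscle, had 1 peak, inside its body 13773 bp past the start at chr4:123247257-123247539. It was 6.41-fold (3.99 to 9.83) from 19 fragments, active by class, and overlapped TBX3.

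**Figure D2:**
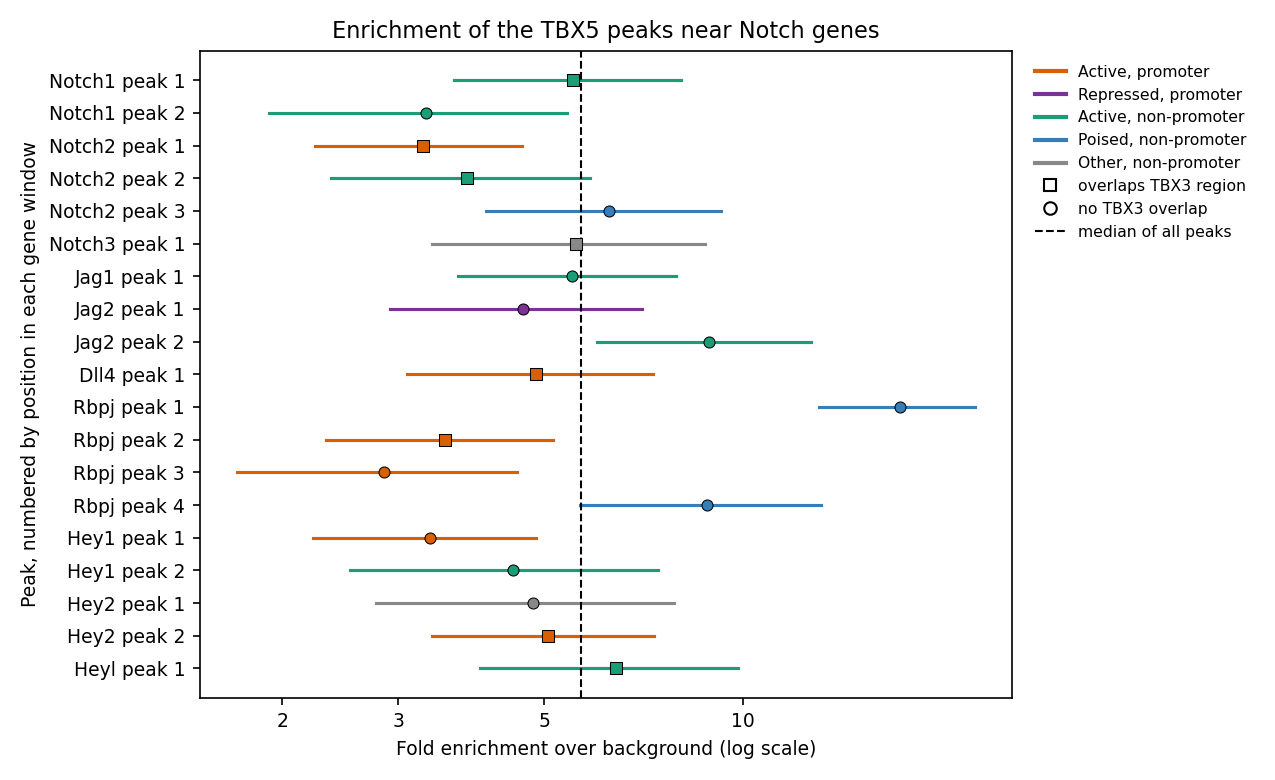
Fold enrichment of each of the 19 peaks (x axis, log scale) by gene, with peaks numbered by genome position in each window (y axis). Bars are 95% Poisson intervals of the summit count alone, squares overlap TBX3 regions, colours are the authors' classes and the dashed line is the median of all peaks at 5.67-fold. The Rbpj peak at 17.3-fold and the Jag2 peak at 8.89-fold have intervals wholly above the line, and 5 peaks have intervals wholly below it, beside 23.2% and 10.2% of all peaks.

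By fold, most of the 19 peaks lay below the median of the whole list. Their median fold was 4.85 (95% order-statistic interval 3.53 to 6.27), beside 5.67 (5.64 to 5.74) for all peaks. Folds above the median of the list were found in 5 of the 19 (26.3%, exact 95% interval 9.15 to 51.2), beside 49.9% of all peaks. A −log10 q of at least 10 was likewise found in 5, beside 41.5%. The intervals contain the values over all peaks for the median fold and both shares, so no difference was detectable with 19 peaks. The median fragment count at the summit was 22 in both sets. No Notch peak reached 20-fold, a level at which 4.07% of all peaks lay, and the exact 95% Clopper-Pearson limit for 0 of 19 is 17.6%. The 5 above the median were the upstream and body peaks of Rbpj, the peak in Brf1 upstream of Jag2, the Heyl peak and the far body peak of Notch2. Of these, 3 were in the poised class and 1 overlapped TBX3, and the same shares among all peaks above the median were not taken. The poised class held no other of the 19 peaks, and it held 14.2% of all peaks.

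Promoter and other peaks of the set differed in background more than in fragment count. The 7 promoter peaks had a median of 25 fragments at the summit over a median background of 4.94, with a median fold of 3.53. The 12 others had a median of 20.5 fragments over a background of 2.24, with a median fold of 5.55. In the whole list the medians were 23 fragments, 4.24 and 4.40-fold for promoter peaks, and 21 fragments, 2.47 and 6.23-fold for the others. The lower fold of the Notch promoters went with a higher background, as it did over the list, and these medians were taken separately. The difference between the 7 and the 12 was not tested, since peaks are not replicates.

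**Figure D3:**
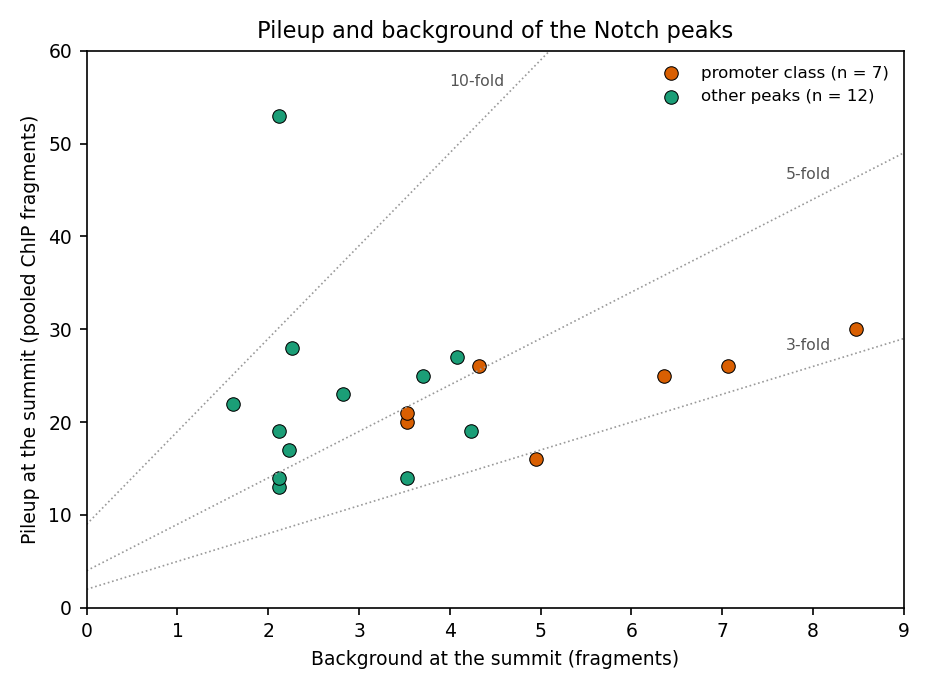
Pooled ChIP fragments at the summit (y axis) against background fragments (x axis) for the 19 peaks, with 7 promoter-class peaks in orange and 12 others in green. Dotted lines mark equal fold. The promoter peaks lie at backgrounds of 3.53 to 8.48 and the others at 1.61 to 4.24, and the point at 53 fragments is the peak upstream of Rbpj.

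Histone marks were read from the deposited table for promoter and other peaks of the set. H3K27ac, a mark of active promoters and enhancers, was found at 14 of the 19 peaks (73.7%, 95% Clopper-Pearson interval 48.8 to 90.9), beside 73.5% of all peaks. It stood at all 7 promoter peaks, beside 93.9% of promoter peaks over the list, and at 7 of the 12 others, beside 66.9%. Among the promoter peaks, those of Jag2 and Vps18 had H3K27ac in only 1 of its 2 region files. Both files overlapped 11 of the 19 peaks, beside 7778 of all 12436. H3K9ac stood at 11 of 19 (57.9%, 33.5 to 79.7), beside 46.0%, and H3K4me3, the promoter mark, at 10 (52.6%, 28.9 to 75.6), beside 31.8%. H3K4me1, the enhancer mark, stood at 12 (63.2%, 38.4 to 83.7), beside 72.3%. It marked 2 of the 7 promoter peaks, those of Jag2 and Vps18, beside 39.7% of promoter peaks over the list. Of the 12 others it marked 10, beside 82.9%. The promoter class made up 36.8% of the set (16.3 to 61.6), beside 24.6% of all peaks. H3K9me3, a mark of heterochromatin, was at 0 of 19, with an upper limit of 17.6%, beside 0.241% of all peaks. The intervals contain the share over all peaks for each of these measures, so no difference was detectable with 19 peaks.

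Regions bound by TBX3 coincided with 8 of the 19 peaks (42.1%, 20.3 to 66.5), beside 27.03% of all peaks. These 8 were spread over 7 of the 10 genes, with 2 at Notch2 and none at Jag1, Jag2 or Hey1. Among promoter peaks it was 4 of 7, beside 45.0% of all promoter peaks, and among the others 4 of 12, beside 21.2%. None of the 3 strongest peaks of the set, the 2 distal peaks of Rbpj and the peak in Brf1, overlapped a TBX3 region. All 3 lay outside the promoter class, for which the share over the list was 21.2%.

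**Figure D4:**
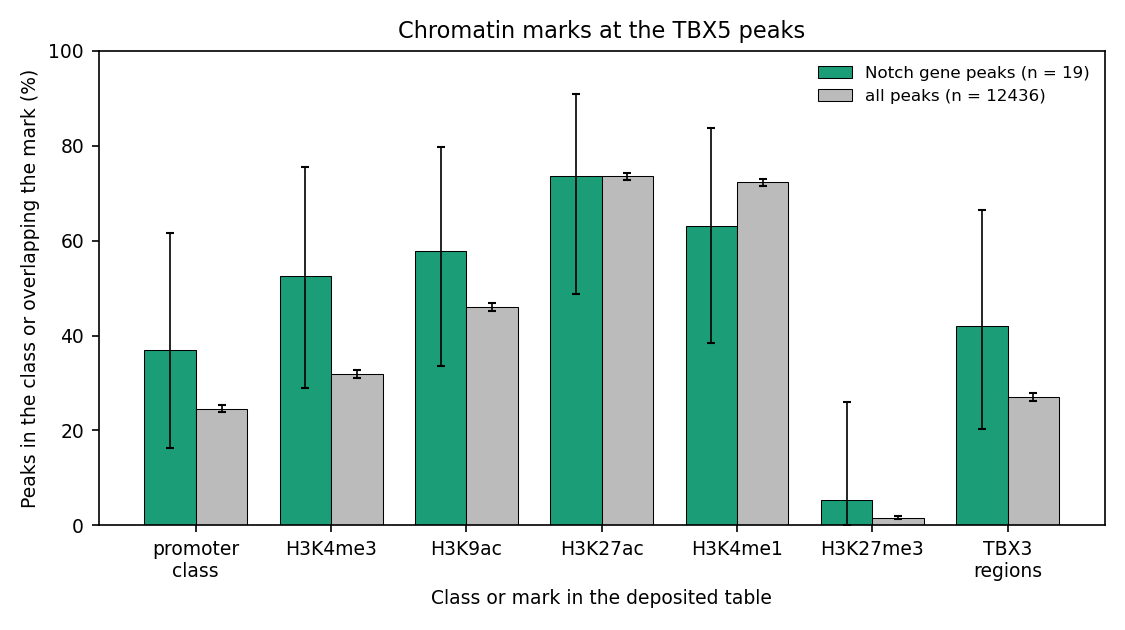
Share of peaks (y axis, %) in the promoter class, overlapping each of 5 histone marks or overlapping TBX3 regions (x axis), for the 19 Notch gene peaks in green and all 12436 peaks in grey. Error bars are exact 95% Clopper-Pearson intervals, and those of the Notch peaks contain the share over all peaks for every measure drawn, as for H3K27ac at 73.7% and 73.5%.

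The edge of the 50 kb window decides some of these counts. The outermost summits inside it were those of Notch3 at 47208 bp (5.58-fold) and Notch1 at 47003 bp (3.31-fold). Outside it, only the nearest summit was taken for each gene. The closest of these were a 19.1-fold peak 60276 bp from Hey1, with Stmn2 as its nearest gene, a 7.28-fold peak 69746 bp from Notch1, next to Egfl7, and a 4.85-fold peak 84897 bp from Rbpj. The last had Rbpj as its nearest coding gene.

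Other genes of the pathway were read in the same way. Of 48 further genes, from ligands to turnover factors, 34 had a summit within 50 kb (70.8%, beside 49.8% of coding genes) and 20 within 10 kb (41.7%, beside 29.9%). By role, a summit within 10 kb was found at 5 of 6 genes of the nuclear activator complex, 3 of 5 repressor genes and 4 of 6 further targets. The same held for 4 of 12 genes that process ligand or receptor, 3 of 9 inhibitor and turnover genes, 1 of 5 glycosyltransferase genes, 0 of 4 ligand genes and 0 of 1 receptor gene. The numbers per role are small, and the roles were not tested against each other. This list too was chosen with earlier results of these data known, so its shares do not test enrichment.

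The highest folds among these genes were at Furin, Mib1, Neurl1a, Spen and Kat2b. Furin, a protease that cuts the receptor during its maturation, had a 29.2-fold peak (25.2 to 33.6) in its window, but 40321 bp away and nearest to Blm. Mib1, a ubiquitin ligase that activates ligands, had 5 summits, all in its body, and its strongest was a 21.8-fold promoter-class peak (17.0 to 27.6) that overlapped TBX3. The 18.0-fold peak (14.1 to 22.8) in the window of Neurl1a, another ligase, was nearest to Sh3pxd2a, and the 15.3-fold peak (11.3 to 20.2) in the window of the RBPJ corepressor gene Spen was nearest to Hspb7. Kat2b, a histone acetyltransferase gene, had 6 summits, all in its body, with a highest fold of 12.9 (8.89 to 18.1). Among coactivators, Maml3 held 16 summits in its body with a highest fold of 10.5 (7.97 to 13.6). Over all coding genes, at least 4 summits in the window were found at 7.60%, and 10 or more at 69 of 21631. The part of gene length in these counts was not tested. Hes1, the other main class of Notch target, had 3 summits within 10 kb and none in its body, the strongest 7.22-fold (5.34 to 9.55).

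**Figure D5:**
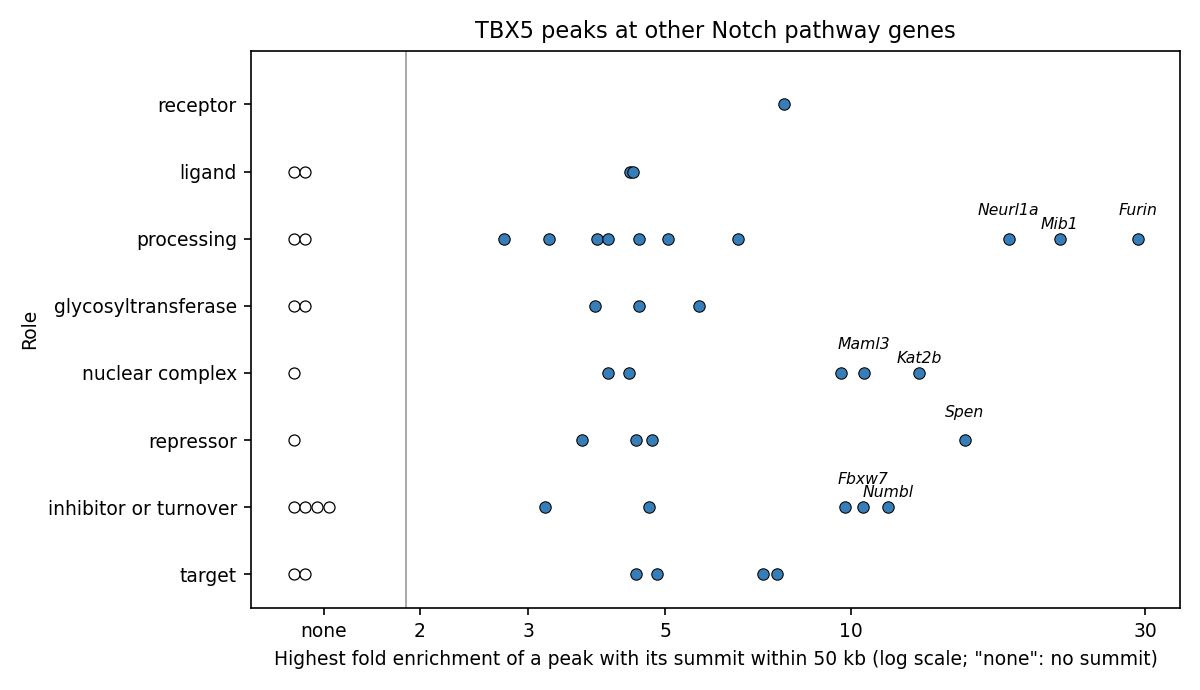
Highest fold enrichment of any peak with its summit within 50 kb (x axis, log scale) for each of 48 other Notch pathway genes by role (y axis). Filled points are the 34 genes with a summit and open points, in the column marked none, the 14 without, and genes at 10-fold or more are named. Furin at 29.2-fold, Mib1 at 21.8-fold and Neurl1a at 18.0-fold lie farthest to the right.

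The pull-down held known TBX5 target genes, with summits within 10 kb of Nppa, Gja5 and Tnnt2 and highest folds of 9.93, 56.9 and 16.7. Of marker genes, a summit within 10 kb was found at 3 of 3 of cardiomyocytes, Tnnt2 again among them, and 2 of 5 of endothelium. The same held for 1 of 3 of neurons and 1 of 3 of hepatocytes, beside 29.9% of all coding genes. A summit is not a measure of expression. Where no summit is reported, binding too weak for the authors' threshold was not detectable at the depth of the pooled samples.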

How the data were processed

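Hearts were assayed by ChIP-seq with single reads of 50 bases from fragments of 200 to 650 bp, per the labels' protocols. The submitters' processing notes name the mm10 build and the tools Bowtie2, SAMtools, MACS2 and ChIPseeker, without versions or settings. The TBX5 samples were pooled for peak calling, per the file names. The fold enrichment (a ratio), the −log10 p and −log10 q and the score of each peak are the authors' deposited values, used only to describe and rank peaks within the list. The same 12436 peaks stood in all 3 deposited lists. The authors' table adds a signed distance to a start, classes, and overlaps with ENCODE histone mark regions and TBX3 regions, whose tissue and stage are not stated, nor is the overlap rule. A peak counted as marked if any region file of the mark overlapped it. Distances to starts are the authors', and the start was matched to a RefSeq gene within 5 bases where one fitted. None fitted for the farther Notch1 peak, the 8.82-fold body peak of Rbpj and the downstream peak of Hey2.

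Read depth per sample is unknown. The fragment count and background at each summit were solved from the fold, (count + 1)/(background + 1), and the −log10 p, taken as a Poisson tail above the count, with a largest misfit of 0.000242 over all peaks. On 500 simulated peaks the count was recovered in 100% of cases. Intervals cover counting error only, and those of shares assume independent peaks, although some lie close together. Gene bodies came from the RefSeq table of GRCm38.p6, and positions are 1-based. Strand came from RefSeq promoters, or for Hey1 and Heyl from the authors' signed distance. All 19 peaks are described, and of the other pathway genes the 5 with the highest fold and, chosen after their values were seen, Maml3 and Hes1. In all, 1 gene of the wider pathway list is not reported here and was left out of its counts. The 10 genes, the other lists and all rules were chosen with earlier results of these data known. No test was run, since 1 pooled list gives no replicate values. Alternatives changed the window, the peaks kept, the assignment to genes, the mark files and the motif. Scripts ran under Python 3.11.15 with scipy 1.17.1, numpy 2.4.6 and pandas 2.3.3, and figures were drawn with matplotlib 3.10.9.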

Additional observations from a re-analysis of the deposited data

How the results depend on the processing

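Of 67 recomputed values, 41 stayed within 1.5 times (counts) or within the 95% interval (medians and shares) of the value reported, and 26 moved. The number of summits was 11 with a window of 10 kb, 8 in the body alone, 12 by the nearest coding gene and 12 outside the promoter class. With −log10 q of at least 10, or with folds at or above the list median, 5 peaks at 4 genes were left under either rule. The genes with a summit numbered 5 of 10 in the body alone. In both stronger sets the median fold was 8.82, by construction for the fold rule, the H3K27ac share 40%, and the promoter and H3K27me3 shares 0%. TBX3 regions then overlapped 0% by q and 20% by fold. The shares under these 2 rules rest on 5 peaks, and the shares of all peaks under the same rules were not taken. They therefore do not show whether strong Notch peaks differ from other strong peaks. Outside the promoter class the H3K27me3 share was 0%. The count of other pathway genes, 34 as reported, was 20 at 10 kb, 12 in the body, 15 by q, 14 by fold, 20 by nearest gene and 20 outside the promoter class. In all coding genes the share with a summit was 26.0% by q, 28.8% by fold, 26.2% by nearest gene and 33.2% outside the promoter class. The promoter share outside the promoter class was left out, being 0 by definition, and motifs in peaks were not run for want of a genome sequence. Leaving out a replicate was not possible with pooled peaks. No paired analysis was possible because the peaks come from 1 pooled call.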
